A study of Homo sapiens with 12 samples.

Results

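The 9 genes described here encode transcription factors that hold liver cells in the hepatocyte state: HNF4A, NR1H4, NR5A2, FOXA1, FOXA2, FOXA3, CEBPA, CEBPB and PROX1. They were taken by gene symbol, and each matched 1 of the 59191 rows of the deposited expression table through its Ensembl identifier and GENCODE 29 names. The RNA came from Huh7 cells, a long-established line from a human hepatocellular carcinoma, and each of 4 groups had 3 libraries: disulfiram with thalidomide, disulfiram, thalidomide, and a control that the columns name DMSO, the usual solvent of such drugs. Disulfiram inhibits aldehyde dehydrogenases, and thalidomide binds cereblon, a substrate receptor of a ubiquitin ligase. All groups share this line; dose units and treatment times could not be taken from the labels, and the number of reads is unknown. Values are TPM, each gene's share of all transcripts corrected for gene length, so levels may be set side by side between genes.

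As background, hepatocyte identity rests on a small circuit of factors that bind each other's control regions. The forkhead proteins FOXA1, FOXA2 and FOXA3 bind closed chromatin in the early liver and let other factors in, and HNF4A, a nuclear receptor, drives much of the adult liver programme. CEBPA and CEBPB bind DNA as leucine zipper dimers; CEBPA is known for metabolic genes and for slowing the cell cycle, CEBPB for acute phase genes. NR1H4 is the bile acid receptor FXR, NR5A2 (LRH-1) acts on genes of bile acid and cholesterol metabolism, and the homeobox protein PROX1 is known to hold back NR5A2 and HNF4A in cell models.

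Libraries differed in ways that bear on these genes. Each held 13693 to 15038 features at 1 TPM or more. How far a gene lay from the mean of its group rose most with the GC content of its transcript in combination library 2 and disulfiram library 2. Spearman's rho was 0.66 and 0.60 across 15042 genes, which are not independent, against -0.59 to 0.48 in the other treated libraries and -0.18 to 0.13 in the controls. Deviations cancel out within a group, so these values do not show which library of a group is unusual. All 10 hepatocyte markers were present, with a summed TPM of 2352 to 3154 with both drugs, 2240 to 2561 with disulfiram, 3064 to 5107 with thalidomide and 2657 to 4775 in control. All 6 biliary markers were present too. Of the markers of cells that a pure line should lack, a mean of 1 TPM in some group was reached by 3 of 10 for immune cells, by 1 of 8 for endothelium and by 6 of 10 for fibroblasts and stellate cells; TYROBP, MS4A1, TEK, EMCN and CLEC4G were at 0 in every library. The endothelial sum was 3.84 to 5.44 TPM with both drugs, 3.55 to 7.42 with disulfiram, 1.66 to 2.51 with thalidomide and 0.79 to 1.55 in control. The immune sum was 101 to 107 TPM with both drugs, 76.3 to 150 with disulfiram, 123 to 172 with thalidomide and 117 to 179 in control. The fibroblast and stellate sum was 67.3 to 95.7 TPM with both drugs, 62.9 to 75.8 with disulfiram, 58.6 to 88.7 with thalidomide and 73.7 to 87.8 in control. Their part in the results was not tested, and in bulk RNA fewer cells of a kind and less RNA per cell cannot be told apart.

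The genes lie on 5 chromosomes in GENCODE 29 coordinates (GRCh38), and each is protein coding. HNF4A spans 44355700 to 44434596, FOXA2 22581005 to 22585455 and CEBPB 50190734 to 50192689 on chromosome 20. CEBPA spans 33299934 to 33302564 and FOXA3 45863989 to 45873797 on chromosome 19. NR5A2 spans 200027602 to 200177424 and PROX1 213983181 to 214041502 on chromosome 1. NR1H4 lies on chromosome 12 at 100473708 to 100564413 and FOXA1 on chromosome 14 at 37589984 to 37596059. CEBPA and CEBPB consist of 1 exon each. Their longest transcripts are GC-rich, at 65.9% and 66.2%, FOXA3 is at 60.8%, FOXA2 at 58.2%, HNF4A at 52.8% and FOXA1 at 51.3%. PROX1, NR1H4 and NR5A2 are at 40.7%, 40.6% and 40.0%, the lowest of the 9.

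RefSeq promoters (GRCh38.p14) were used for 7 of the 9 genes, in 10 windows of 250 bases before a transcription start. Shown are the promoters of FOXA1 and CEBPA, the genes that passed in all 3 comparisons of a group with disulfiram against one without it, beside 1 each of CEBPB and NR5A2, which moved differently. FOXA1 is read from the minus strand at chr14:37595349-37595499 and CEBPA from the minus strand at chr19:33302565-33302784, each without the bases that GENCODE puts in an exon. CEBPB is on the plus strand at chr20:50190333-50190582 and the inner NR5A2 start on the plus strand at chr1:200042341-200042590. Capitals mark matches to the forkhead motifs TGTTTAC and TGTTTGC on either strand.
FOXA1: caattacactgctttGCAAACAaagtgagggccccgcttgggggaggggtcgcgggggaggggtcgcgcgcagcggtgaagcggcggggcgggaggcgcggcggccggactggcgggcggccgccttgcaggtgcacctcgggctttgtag
CEBPA: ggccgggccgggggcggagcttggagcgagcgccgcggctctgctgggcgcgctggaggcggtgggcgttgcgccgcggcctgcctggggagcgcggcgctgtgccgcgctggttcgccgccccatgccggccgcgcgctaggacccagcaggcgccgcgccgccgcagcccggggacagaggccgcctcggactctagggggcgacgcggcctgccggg
CEBPB: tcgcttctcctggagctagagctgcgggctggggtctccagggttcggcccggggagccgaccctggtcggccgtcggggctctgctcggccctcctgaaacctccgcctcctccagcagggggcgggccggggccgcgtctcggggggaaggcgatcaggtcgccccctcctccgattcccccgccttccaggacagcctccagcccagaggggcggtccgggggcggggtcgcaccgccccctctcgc
NR5A2: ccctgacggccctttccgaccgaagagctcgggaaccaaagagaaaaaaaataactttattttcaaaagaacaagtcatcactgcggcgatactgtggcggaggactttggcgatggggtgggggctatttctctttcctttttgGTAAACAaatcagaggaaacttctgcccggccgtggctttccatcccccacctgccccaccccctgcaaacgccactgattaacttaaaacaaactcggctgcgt
The FOXA1 promoter held TGTTTGC on the opposite strand at position -235 from the transcription start, a motif found in 3.23% of 35116 promoter windows of the same length. The inner NR5A2 promoter held TGTTTAC, also on the opposite strand, at -105 (2.98% of windows). TTGCNNAA, a C/EBP motif present in 9.05% of windows, had no match in the 10 windows of these genes. CEBPA had TATAAA at -30, outside the stretch shown (10.72% of windows). Windows not shown held it too: FOXA3 at -30, the other CEBPB window at -29 and the outer NR5A2 window at -201 on the opposite strand. GGGCGG, the GC box, had 4 matches in the CEBPB window shown, 2 in that of CEBPA and 2 in that of FOXA1, and occurs in 42.64% of windows. GC boxes are left in lower case, no 2 of these matches overlap, and a match is a description of the letters.

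All 9 genes were expressed in every library, with a TPM between 6.33 and 234. With both drugs the order by mean was CEBPA, HNF4A, FOXA3, FOXA2, NR5A2, PROX1, FOXA1, CEBPB and NR1H4, where only CEBPA and HNF4A, HNF4A and FOXA3, FOXA2 and NR5A2, and FOXA1 and CEBPB were neighbours without overlap of libraries. In control, CEBPA stood highest at 209 ± 22.3 TPM (SD, n = 3 here and below), above 96.8% of protein-coding genes. HNF4A followed at 56.2 ± 2.72 TPM, FOXA3 at 47.9 ± 5.83 TPM and FOXA2 at 46.5 ± 4.11 TPM, each overlapping the next. FOXA1 was at 26.5 ± 3.32 TPM, and CEBPB at 19.2 ± 2.84 TPM overlapped NR5A2 at 17.4 ± 2.69 TPM. PROX1 at 12.6 ± 1.04 TPM and NR1H4 at 9.09 ± 0.794 TPM were lowest, and NR1H4 still stood above 64.7% of protein-coding genes. By mean, FOXA1 and CEBPB thus ranked above NR5A2 and PROX1 in control and below them with both drugs. These ranks are of TPM as deposited, without the GC correction used below, which lowers the changes of NR5A2 and PROX1 with both drugs. The plot of TPM by library shows each value.

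**Figure D1:**
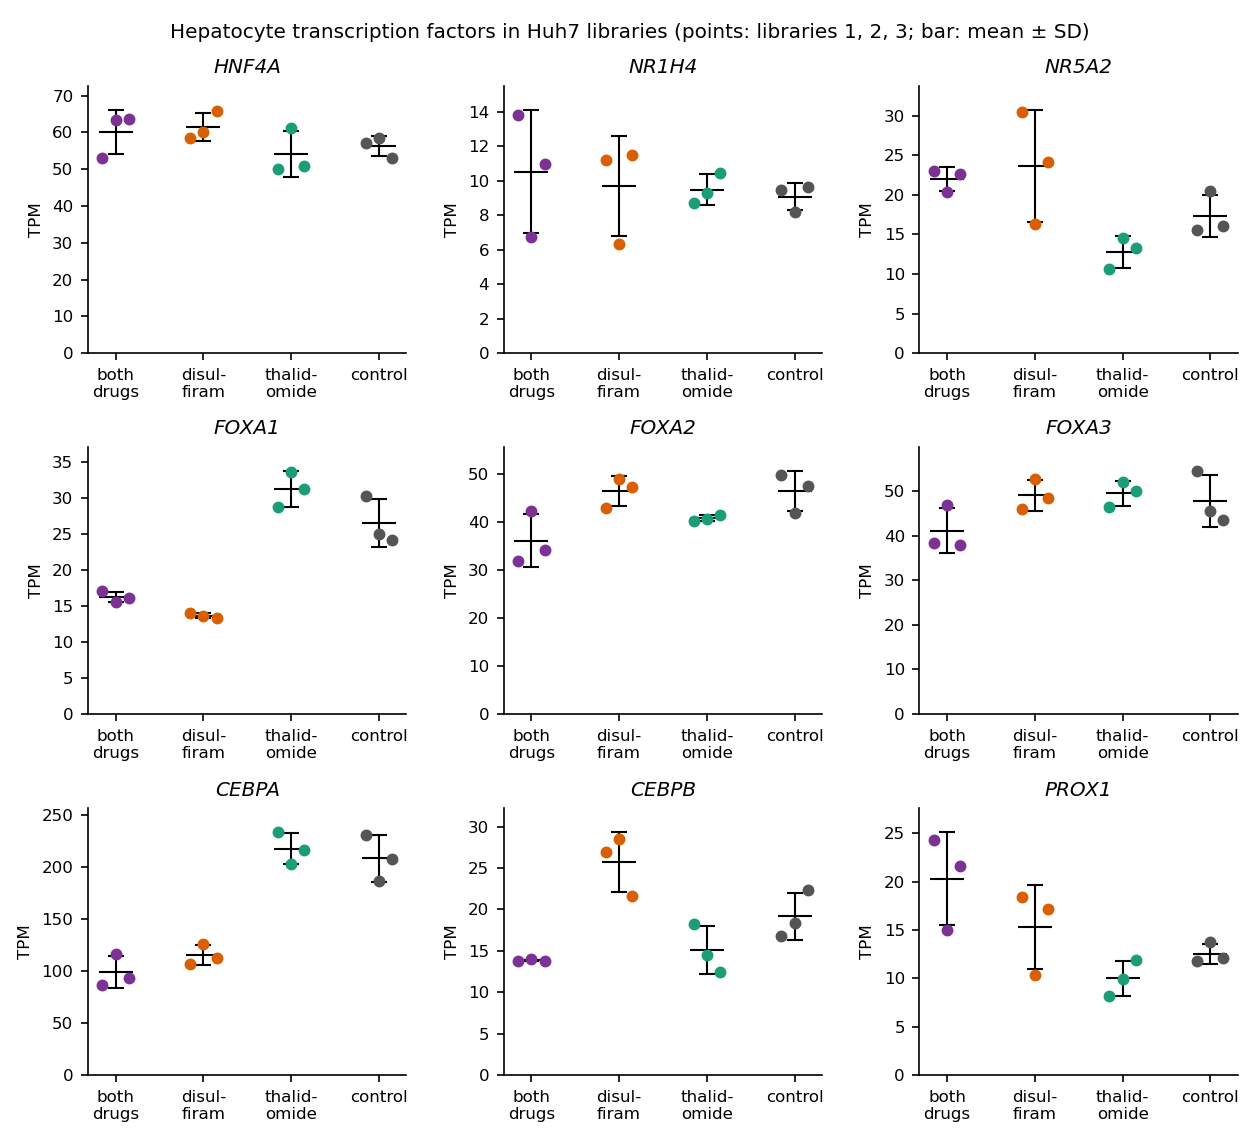
TPM of the 9 genes (vertical axes, from 0) in each library of the 4 groups, as points, with the group mean and SD (n = 3). FOXA1 and CEBPA are lower in every library that had disulfiram, alone or with thalidomide, than in every library without it, and CEBPB is near 13.8 TPM in the 3 combination libraries.

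Disulfiram lowered 2 of the 9 genes, FOXA1 and CEBPA, to 0.534 and 0.557 of the control level on the TPM + 1 scale, and the combination lowered these and FOXA2. For thalidomide alone 0 of 9 passed the threshold. Tests used limma on log2(TPM + 1) over 15352 genes with Benjamini-Hochberg adjustment and an adjusted p below 0.05 as the threshold; changes are log2 fold changes ± SE. With disulfiram 13.2% of all genes passed and 4.52% of all genes were lower, against 2 of 9 here, both lower. With both drugs against control 25.1% of all genes passed and 6.7% of all genes were lower, against 3 of 9 here, all lower. Median changes of the 9 genes were 0.04 with disulfiram and -0.21 with both drugs, beside 0.09 and 0.20 over all genes. Median-of-ratios scaling takes the shift of 0.20 out, and the changes of the 9 genes with both drugs were then lower. More of all genes were also called lower under that scaling and under a GC correction, as given in the last section. The shares of 4.52% and 6.7% lower thus hold for the main fit only. The 2 comparisons with control, for disulfiram and for both drugs, use the same 3 control libraries.

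Among the forkhead genes, FOXA1 fell with disulfiram whether or not thalidomide was present. It was at 17.0, 15.5 and 16.1 TPM with both drugs, 14.0, 13.6 and 13.3 TPM with disulfiram, 28.7, 33.6 and 31.2 TPM with thalidomide and 30.3, 25.0 and 24.2 TPM in control. The 6 libraries with disulfiram were all below the 6 without it, with a gap between 17.0 and 24.2 TPM. The change was -0.90 ± 0.10 for disulfiram against control (adjusted p = 0.000324) and -0.67 ± 0.10 for both drugs against control (adjusted p = 0.00185). In the libraries with thalidomide, which share none with the disulfiram and control groups, both drugs against thalidomide gave -0.90 ± 0.10 (adjusted p = 0.00025). These 3 calls held under all 20 alternatives. TTC6, which overlaps FOXA1 on the other strand, was at 0.54 to 1.35 TPM. The effect of disulfiram on FOXA1 with thalidomide minus that without it was 0.00 ± 0.15 (95% interval -0.31 to 0.32, adjusted p = 0.997).

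FOXA2 and FOXA3, which bind the same kind of site as FOXA1, did not pass with disulfiram alone, and FOXA2 passed with both drugs against control; their difference from FOXA1 was not tested. FOXA2 was at 31.9, 42.3 and 34.2 TPM with both drugs, 43.0, 49.1 and 47.3 TPM with disulfiram, 40.3, 40.6 and 41.6 TPM with thalidomide and 49.9, 42.0 and 47.7 TPM in control. Disulfiram against control gave 0.00 ± 0.11 (interval -0.24 to 0.24, adjusted p = 1.00), an interval that does not reach the change of FOXA1. With both drugs FOXA2 passed the threshold against control (-0.36 ± 0.11, adjusted p = 0.0327), although 1 combination library lay among the controls. That call was lost without combination 1 (adjusted p = 0.13), combination 3 (0.114), control 1 (0.108) or control 3 (0.0911), with no filter (0.0606) and with the compared groups alone (0.0706). A protein-coding locus, AL121722.1, shares exon sequence with FOXA2 on the same strand, so reads may be divided between them. AL121722.1 was at 28.3, 25.1 and 26.9 TPM with both drugs and 18.8, 17.0 and 24.6 TPM with disulfiram. In control it was at 25.15, 23.5 and 21.4 TPM. Its change against control was 0.19 ± 0.14 with both drugs (adjusted p = 0.31), opposite in sign to that of FOXA2, and -0.22 ± 0.14 with disulfiram (adjusted p = 0.354). Its part in the FOXA2 values was not tested. FOXA3 was at 38.5, 47.0 and 38.0 TPM with both drugs, 46.0, 52.9 and 48.5 TPM with disulfiram, 46.6, 52.1 and 50.1 TPM with thalidomide and 54.5, 45.6 and 43.5 TPM in control. Its libraries overlap between both drugs and control, and the change of -0.21 ± 0.11 missed the threshold (adjusted p = 0.159), as did that with disulfiram (0.04 ± 0.11, adjusted p = 0.858). With median-of-ratios scaling FOXA3 was at -0.45 with both drugs (adjusted p = 0.034).

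Within libraries, FOXA2 TPM was 1.88, 2.73 and 2.13 times that of FOXA1 with both drugs, 3.08, 3.61 and 3.55 times with disulfiram, 1.41, 1.21 and 1.33 times with thalidomide and 1.65, 1.68 and 1.97 times in control. The disulfiram libraries had the highest ratios, with no overlap with any other group, and the thalidomide libraries the lowest. These ratios are descriptions with no test.

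**Figure D2:**
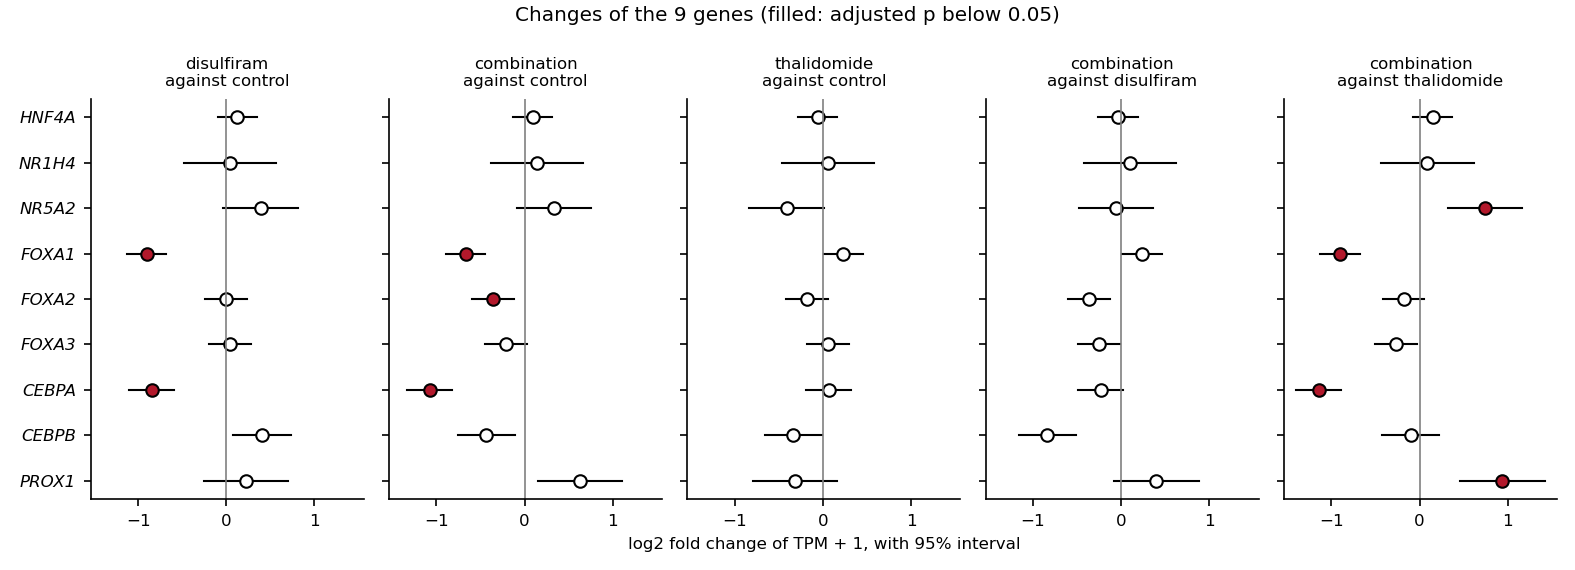
Log2 fold change of TPM + 1 with its 95% interval for the 9 genes in 5 comparisons, each named group against the second. Filled points have an adjusted p below 0.05. FOXA1 and CEBPA are filled in the 3 comparisons that set a group with disulfiram against one without it, and no gene is filled for thalidomide against control or for the combination against disulfiram.

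CEBPA, the most abundant of the genes, fell in the same 3 comparisons as FOXA1. It was at 86.6, 116 and 93.9 TPM with both drugs, 107, 127 and 113 TPM with disulfiram, 234, 204 and 217 TPM with thalidomide and 231, 187 and 208 TPM in control. The highest library with disulfiram, at 127 TPM, lay below the lowest without it, at 187 TPM. Disulfiram against control gave -0.84 ± 0.12 (adjusted p = 0.00103), both drugs against control -1.07 ± 0.12 (adjusted p = 0.000256) and both drugs against thalidomide -1.14 ± 0.12 (adjusted p = 0.000139). All 3 held under all 20 alternatives, among them the removal of the second disulfiram and second combination libraries. Adding thalidomide to disulfiram gave -0.23 ± 0.12 (interval -0.49 to 0.02, adjusted p = 0.32), with overlapping libraries.

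CEBPA shares its span with AC008738.3, an antisense transcript that overlaps its exon, and lies beside CEBPA-DT. AC008738.3 was at 35.8, 62.2 and 47.3 TPM with both drugs, 39.0, 40.2 and 38.8 TPM with disulfiram, 92.2, 98.4 and 99.0 TPM with thalidomide and 99.2, 77.2 and 64.0 TPM in control. It fell with disulfiram (-0.99 ± 0.18, adjusted p = 0.00471) and with both drugs (-0.73 ± 0.18, adjusted p = 0.0155). The sources used here do not say whether strand was kept, and without it reads of CEBPA and of this transcript cannot be told apart. CEBPA-DT, which does not overlap CEBPA, was at 7.00, 8.38 and 7.29 TPM with both drugs, 7.83, 7.42 and 7.89 TPM with disulfiram and 8.72, 7.05 and 5.38 TPM in control. Its changes of 0.14 ± 0.14 with disulfiram and 0.11 ± 0.14 with both drugs missed the threshold (adjusted p = 0.595 and 0.594).

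CEBPB, the paralog of CEBPA, stood higher with disulfiram alone than with both drugs. It was at 13.8, 14.0 and 13.8 TPM with both drugs, 26.9, 28.5 and 21.7 TPM with disulfiram, 18.2, 14.5 and 12.5 TPM with thalidomide and 16.8, 18.3 and 22.3 TPM in control. The combination libraries lay below all disulfiram and all control libraries, and the disulfiram range of 21.7 to 28.5 TPM overlapped that of control at 22.3 TPM. No comparison of CEBPB passed the threshold. Both drugs against disulfiram gave -0.84 ± 0.15 (unadjusted p = 0.000111, adjusted p = 0.22), which ranked 6 among the 15352 genes in a comparison where 0.00651% of genes, 1 in number, passed. Its adjusted p ranged from 0.0513 to 0.704 over the alternatives, with a change of -0.95 to -0.71. Disulfiram against control gave 0.41 ± 0.15 (adjusted p = 0.096) and both drugs against control -0.43 ± 0.15 (adjusted p = 0.0509). The change against control with both drugs passed in 6 of 20 alternatives, among them median-of-ratios scaling (-0.66, adjusted p = 0.0223) and the compared groups alone (adjusted p = 0.0405). The effect of thalidomide with disulfiram minus that without it was -0.51 ± 0.21 (interval -0.96 to -0.05, adjusted p = 0.466). CEBPB-AS1, which overlaps CEBPB on the other strand, was between 0.02 and 0.60 TPM in all libraries.

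CEBPA TPM was 6.28, 8.34 and 6.82 times that of CEBPB with both drugs, 3.99, 4.44 and 5.21 times with disulfiram, 12.9, 14.1 and 17.4 times with thalidomide and 13.7, 10.2 and 9.32 times in control. The 4 groups' ranges run in the order disulfiram, both drugs, control, thalidomide, and only those of control and thalidomide overlap. As above, the ratio is a description.

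**Figure D3:**
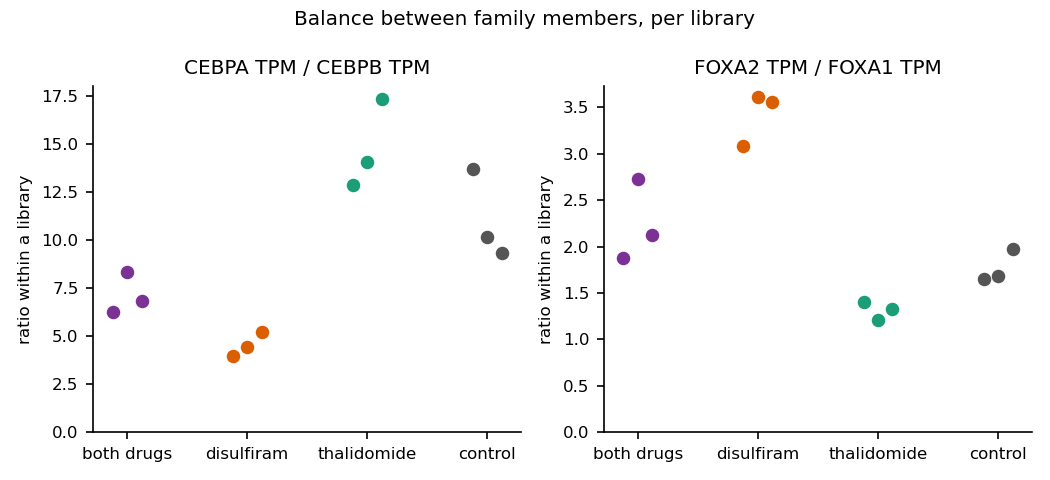
Ratio of TPM values of 2 related genes within each library (vertical axes, from 0), 3 libraries per group. The CEBPA to CEBPB ratio is 3.99 to 5.21 with disulfiram and 9.32 to 13.7 in control; the FOXA2 to FOXA1 ratio is 3.08 to 3.61 with disulfiram and 1.65 to 1.97 in control.

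Of the nuclear receptor genes, NR5A2 passed the threshold in 1 comparison, and HNF4A and NR1H4 in 0. HNF4A was at 53.2, 63.3 and 63.8 TPM with both drugs, 58.4, 60.2 and 65.8 TPM with disulfiram, 50.1, 61.3 and 50.9 TPM with thalidomide and 57.0, 58.4 and 53.2 TPM in control. The disulfiram and control libraries did not overlap, but the lowest disulfiram library at 58.42 TPM and the highest control library at 58.41 TPM were all but equal. Disulfiram gave 0.13 ± 0.10 (interval -0.10 to 0.35, adjusted p = 0.46) and both drugs 0.09 ± 0.10 (-0.13 to 0.31, adjusted p = 0.516). These intervals leave out a fall of the size seen for FOXA1 or CEBPA, and with median-of-ratios scaling the change with both drugs turned to -0.14 (adjusted p = 0.374).

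NR1H4, the bile acid receptor gene, was at 13.84, 6.74 and 11.01 TPM with both drugs, 11.2, 6.33 and 11.5 TPM with disulfiram, 8.73, 9.27 and 10.48 TPM with thalidomide and 9.48, 8.18 and 9.62 TPM in control. The second combination and second disulfiram libraries were the lowest of all 12, and the other 4 libraries with disulfiram were the highest. No comparison passed (0.04 ± 0.24 with disulfiram, adjusted p = 0.931; 0.14 ± 0.24 with both drugs, adjusted p = 0.667). Without those 2 libraries both drugs against control gave 0.41 (adjusted p = 0.0336), whereas a correction for GC content gave -0.28 (adjusted p = 0.176). With both drugs against thalidomide, the change of 0.09 ± 0.24 (adjusted p = 0.794) became -0.40 with the GC correction (adjusted p = 0.0623) and passed when a replicate block was added to it (adjusted p = 0.0169), so no direction can be given.

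NR5A2 was at 23.1, 20.3 and 22.6 TPM with both drugs, 30.4, 16.3 and 24.2 TPM with disulfiram, 10.6, 14.6 and 13.3 TPM with thalidomide and 15.6, 20.5 and 16.1 TPM in control. The thalidomide libraries were below all others, and those of both drugs and control overlapped by 1 library. It rose with both drugs against thalidomide (0.74 ± 0.19, adjusted p = 0.0159). That call was lost with the GC correction (0.23, adjusted p = 0.18) and without combination 1 (adjusted p = 0.0573), combination 3 (0.0563) or thalidomide 1 (0.0682). Disulfiram against control gave 0.39 ± 0.19 (adjusted p = 0.214), which was 0.63 without disulfiram 2 (adjusted p = 0.0299). Both drugs against control gave 0.33 ± 0.19 (adjusted p = 0.208), and -0.11 with the GC correction.

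PROX1, the homeobox factor that interacts with the 2 receptors HNF4A and NR5A2, rose with both drugs against thalidomide. It was at 24.3, 14.97 and 21.7 TPM with both drugs, 18.4, 10.3 and 17.2 TPM with disulfiram, 8.20, 9.94 and 11.9 TPM with thalidomide and 11.8, 13.7 and 12.2 TPM in control. All combination libraries were above all control and all thalidomide libraries, and the second disulfiram library was below the controls. The change against thalidomide was 0.94 ± 0.22 (adjusted p = 0.00996), past the threshold in all 20 alternatives but at 0.46 with the GC correction (adjusted p = 0.00863). In that comparison 32.2% of all genes passed, 25% of all genes being higher and 7.24% lower, and 4 of the 9 genes did so: NR5A2 and PROX1 higher, FOXA1 and CEBPA lower. Against control PROX1 missed the threshold with both drugs (0.63 ± 0.22, adjusted p = 0.0541; GC-corrected 0.21) and with disulfiram (0.23 ± 0.22, adjusted p = 0.547). Both drugs against control passed without combination 2 (0.82, adjusted p = 0.017), disulfiram 2 (adjusted p = 0.0218) or both (adjusted p = 0.00278), and with the compared groups alone (adjusted p = 0.0413). PROX1-AS1, an antisense transcript with exonic overlap, was at 7.15, 7.16 and 5.49 TPM with both drugs, 5.07, 8.39 and 5.95 TPM with disulfiram and 5.28, 3.92 and 3.09 TPM in control (0.59 ± 0.24 with both drugs, adjusted p = 0.0842).

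**Figure D4:**
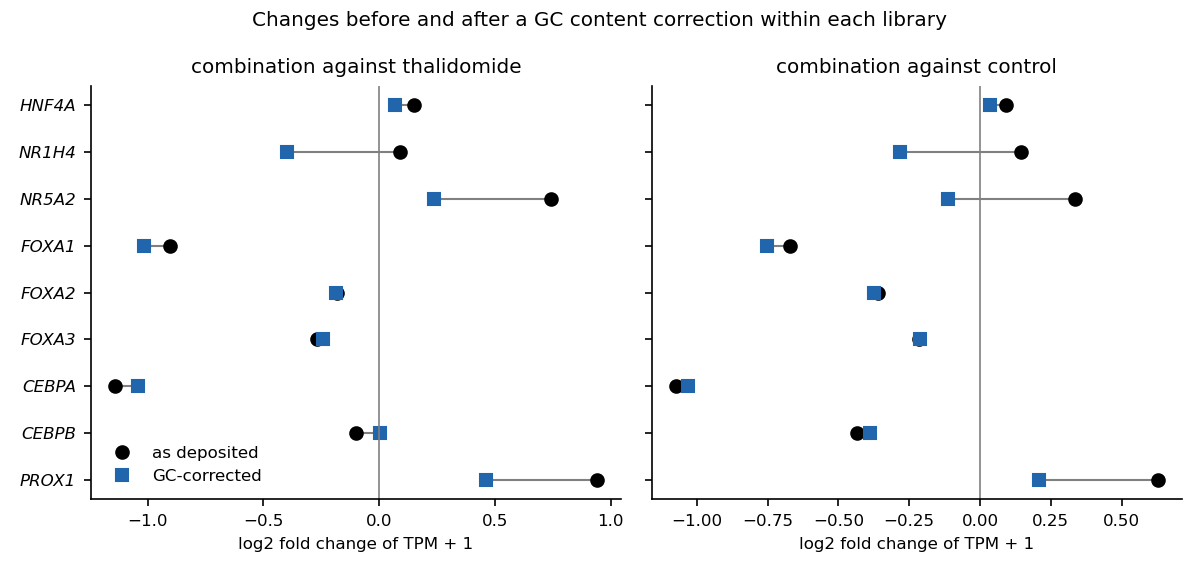
Log2 fold change of TPM + 1 of the 9 genes for both drugs against thalidomide and against control, as deposited (circles) and after removing a smooth dependence on GC content within each library (squares). NR1H4, NR5A2 and PROX1, the members with the lowest GC content, shift to the left by the most, and FOXA1 and CEBPA are at -0.67 or lower in both panels.

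The GC-dependent shift was present in whole comparisons as well. Across 15042 genes the change with both drugs followed GC content (Spearman's rho -0.44 against control, -0.49 against thalidomide and -0.63 against disulfiram, with no p since genes are not independent), and that with disulfiram against control did not (0.00). The GC-corrected values were -0.75 for FOXA1, -0.37 for FOXA2 and -1.03 for CEBPA with both drugs against control (adjusted p = 0.000271, 0.00838 and 4.56e-05).

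Thalidomide alone, set against control, left all 9 genes short of the threshold. Limma called 0 of 15352 genes (0%) in this comparison, 873 having an unadjusted p below 0.05. Of the 9 genes, FOXA1 (0.23 ± 0.10, adjusted p = 0.856) and CEBPB (-0.34 ± 0.15, adjusted p = 0.856) had an unadjusted p below 0.05. NR5A2 (-0.41 ± 0.19) and FOXA2 (-0.18 ± 0.11) had all thalidomide libraries below all controls, as 2 of 9 against 10.2% of all genes without overlap in either direction. CEBPA was at 0.07 ± 0.12 (interval -0.19 to 0.32) and HNF4A at -0.06 ± 0.10 (-0.28 to 0.16).

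Adding thalidomide to disulfiram called 0 of the 9 genes with limma, beside 0.00651% of all genes. Of the 9 genes 4 had an unadjusted p below 0.05, beside 2631 of all 15352 genes. These were CEBPB, FOXA2 (-0.36 ± 0.11, adjusted p = 0.26), FOXA3 (-0.25 ± 0.11, adjusted p = 0.278) and FOXA1 (0.23 ± 0.10, adjusted p = 0.283). FOXA1 was higher, and FOXA2 and CEBPB lower, in all combination than in all disulfiram libraries, 3 of 9 against 16.2% of all genes. For the interaction limma called 0 of 15352 genes (0%), 1580 having an unadjusted p below 0.05, and 0 of the 9, with CEBPB and PROX1 (0.71 ± 0.31, interval 0.04 to 1.39, adjusted p = 0.466) at an unadjusted p below 0.05. Without overlap were also 3 of the 9 genes with disulfiram against control (32.9% of all genes), 4 with both drugs against control (46%) and 4 with both drugs against thalidomide (44.7%).

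The lists below are read against the share of all genes that passed: 8.73% higher and 4.52% lower with disulfiram, 18.4% higher and 6.7% lower with both drugs against control, and 25% higher and 7.24% lower with both drugs against thalidomide. The medians over all genes were 0.09, 0.20 and 0.22 in these comparisons. Under median-of-ratios scaling and the GC correction the split of all genes moved toward lower, as given in the last section. The lists were counted in the main fit only. Of 30 tested other liver transcription factors (32 listed), 1 rose and 0 fell with disulfiram, 2 rose and 5 fell with both drugs against control, and 3 rose and 5 fell against thalidomide (medians 0.09, 0.08 and 0.15). The 7 that passed with both drugs against control are a share near the 25.1% of all genes. CREB3L3, a liver factor of the fasting response that sits in the endoplasmic reticulum membrane, was at 57.2, 55.2 and 57.8 TPM with both drugs, 77.8, 50.7 and 65.8 TPM with disulfiram and 28.0, 39.3 and 37.1 TPM in control (0.70 ± 0.16 and 0.87 ± 0.16, adjusted p = 0.0112 and 0.00503). The immediate early zinc finger gene KLF6 rose with both drugs (1.01 ± 0.20, adjusted p = 0.00645). NR1H3, the oxysterol receptor LXR alpha, fell with both drugs (-0.29 ± 0.10, adjusted p = 0.0479).

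The next list held the C/EBP family, CEBPA and CEBPB among them, its zipper partners, and TRIB1, which is not a zipper protein. Of 10 tested genes of 12 listed, 3 rose and 2 fell with disulfiram. With both drugs 2 rose and 2 fell against control, and 3 rose and 1 fell against thalidomide. TRIB1 was among the genes that rose in each of these comparisons. With 10 genes each count is small. The stress factor DDIT3 (CHOP), which forms dimers with C/EBP proteins, was at 22.8, 21.6 and 25.9 TPM with both drugs, 27.5, 19.3 and 19.8 TPM with disulfiram and 10.8, 13.7 and 14.2 TPM in control. It rose with disulfiram (0.73 ± 0.15, adjusted p = 0.00969) and with both drugs (0.82 ± 0.15, adjusted p = 0.00474). ATF4, the factor of the integrated stress response upstream of DDIT3, fell with both drugs to 354, 319 and 339 TPM, against 436, 542 and 535 TPM in control (-0.57 ± 0.11, adjusted p = 0.00635), and with disulfiram (-0.68 ± 0.11, adjusted p = 0.00321). The list medians were 0.07 with disulfiram, 0.16 with both drugs against control and 0.21 against thalidomide, close to those of all genes.

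Genes known as targets of the 9 factors were counted by list. Of 17 tested targets of HNF4A (24 listed), 1 rose and 6 fell with disulfiram, and 0 rose and 6 fell with both drugs, with medians of -0.55 and -0.44 beside 0.09 and 0.20 over all genes. APOB, the structural protein of very low density lipoprotein, was at 24.9, 10.2 and 17.9 TPM with both drugs, 11.3, 8.67 and 10.6 TPM with disulfiram and 38.9, 34.1 and 30.9 TPM in control. It fell in both comparisons (-1.01 ± 0.28 with both drugs, adjusted p = 0.0255; -1.67 ± 0.28 with disulfiram, adjusted p = 0.00327). The thyroid hormone carrier TTR, listed for FOXA too, fell with both drugs (-0.99 ± 0.21) and with disulfiram (-0.85 ± 0.21; adjusted p = 0.0079 and 0.0196), and the coagulation factor gene F10 fell likewise (-0.66 ± 0.12 and -0.65 ± 0.12, adjusted p = 0.0046 and 0.00565). APOA4 rose with disulfiram (1.05 ± 0.24, adjusted p = 0.0145). With both drugs against thalidomide 0 rose and 11 fell, with a median of -0.66 beside 0.22 over all genes. HNF4A itself did not pass in any of these comparisons, and 0 genes of any list passed for thalidomide against control or for both drugs against disulfiram.

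Of 16 tested C/EBP targets (24 listed), 0 rose and 6 fell with disulfiram, with both drugs against control and with both drugs against thalidomide alike, with medians of -0.52, -0.27 and -0.27. HAMP, the hepcidin gene, was at 10.6, 12.2 and 14.2 TPM with both drugs, 9.95, 14.9 and 11.2 TPM with disulfiram, 197, 304 and 126 TPM with thalidomide and 146, 61.7 and 34.2 TPM in control. The libraries with disulfiram were all below those without it, and the controls spread over a wide range. Its changes were -2.37 ± 0.43 with both drugs and -2.42 ± 0.43 with disulfiram (adjusted p = 0.00409 and 0.00396). ASS1, the urea cycle enzyme argininosuccinate synthase, fell in both (-1.05 ± 0.12 and -0.86 ± 0.12, adjusted p = 0.000362 and 0.00113), and complement C3 fell with both drugs to 632, 687 and 581 TPM, against 1562, 1154 and 1137 TPM in control (-1.01 ± 0.14, adjusted p = 0.00137). The acute phase gene ORM2 fell with disulfiram (-0.999 ± 0.15, adjusted p = 0.00192); its near-identical copy ORM1 is in the same list, so their reads may be shared. Of 7 tested FOXA targets (13 listed), 1 fell with disulfiram and 1 with both drugs against control, TTR in each, and 4 fell with both drugs against thalidomide: AFP, APOA2, SERPINA1 and TTR. The medians of these FOXA targets were -0.19, -0.29 and -0.59. APOA2, SERPINA1 and TTR are also among the HNF4A targets that fell against thalidomide, and AFP among the biliary and progenitor genes. The lists thus share genes and are not separate counts.

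Among 14 tested FXR and bile acid genes (21 listed), 1 rose and 2 fell with disulfiram and likewise with both drugs against control, and 3 rose and 4 fell against thalidomide, with medians of -0.12, -0.01 and -0.08. The 3 that passed against control are to be set beside 13.2% of all genes with disulfiram and 25.1% with both drugs. The counts against thalidomide are to be set beside 25% of all genes higher and 7.24% lower. With 14 genes each count is small. FGF19, a hormone gene that FXR is known to induce, was at 4.24, 5.19 and 4.28 TPM with both drugs, 5.36, 5.92 and 5.62 TPM with disulfiram, 9.03, 12.0 and 13.4 TPM with thalidomide and 11.3, 16.3 and 17.0 TPM in control. It fell with both drugs (-1.49 ± 0.17) and with disulfiram (-1.24 ± 0.17; adjusted p = 0.000317 and 0.000931). Its liver receptor gene FGFR4 fell in the same comparisons, to 133, 160 and 142 TPM with both drugs and 131, 183 and 148 TPM with disulfiram, against 360, 288 and 295 TPM in control (-1.11 ± 0.13 and -1.03 ± 0.13, adjusted p = 0.000308 and 0.000471). The bile acid conjugating gene UGT2B4 rose with both drugs (1.21 ± 0.23, adjusted p = 0.00487). NR1H4 did not pass in either comparison.

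Of 15 tested biliary and progenitor genes (17 listed), 1 rose and 2 fell with disulfiram and likewise with both drugs against control, and 3 rose and 3 fell against thalidomide, with medians of -0.17, -0.03 and 0.04. These 3 of 15 stand near the shares of all genes, 13.2% with disulfiram and 25.1% with both drugs against control. The gene that rose was KRT7, a keratin of bile ducts (1.06 ± 0.30 with both drugs and 1.04 ± 0.30 with disulfiram, adjusted p = 0.0256 and 0.04). GPC3, an oncofetal surface proteoglycan of hepatocellular carcinoma, fell with both drugs (-0.64 ± 0.10) and with disulfiram (-0.59 ± 0.10; adjusted p = 0.00165 and 0.00256). KRT19, another such keratin, fell with both drugs to 617, 820 and 654 TPM, against 949, 977 and 833 TPM in control (-0.41 ± 0.12, adjusted p = 0.0283).

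**Figure D5:**
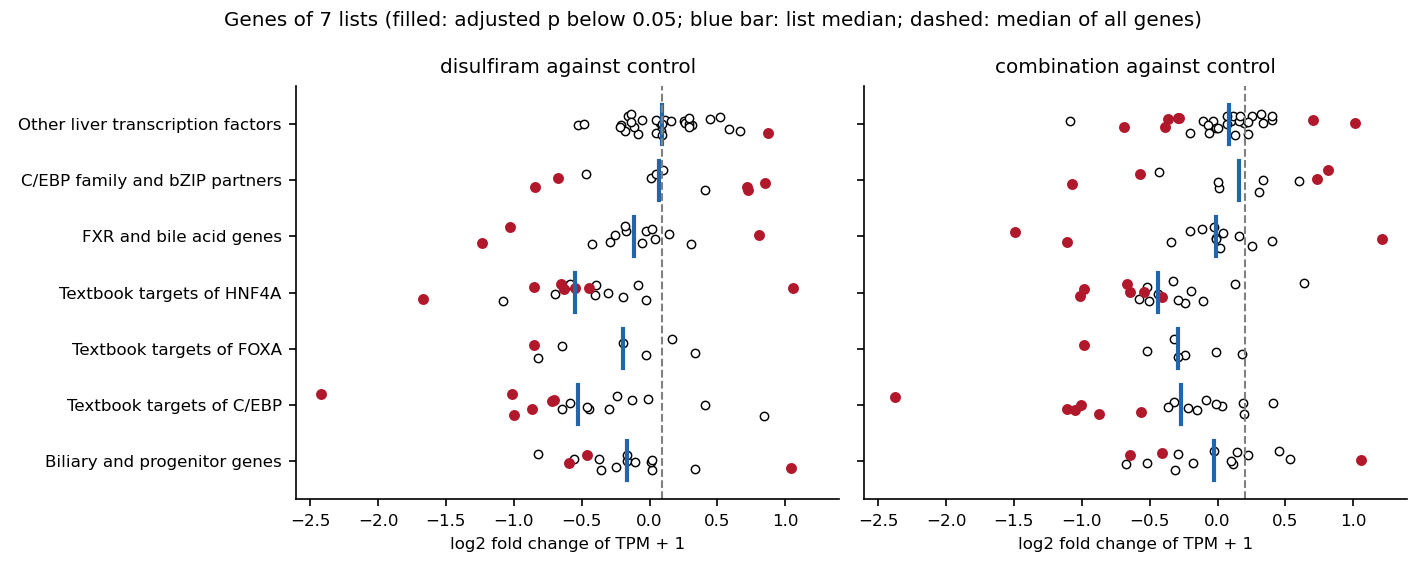
Log2 fold change of TPM + 1 (horizontal axes) of each tested gene of 7 lists for disulfiram and for both drugs against control. Filled points have an adjusted p below 0.05, the blue bar is the list's median and the dashed line the median of all 15352 genes. The target lists of HNF4A and C/EBP have medians of -0.55 and -0.52 with disulfiram, left of the dashed line at 0.09.

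Likeness to the 3 genes that passed against control was measured as the root-mean-square difference between centred log2(TPM + 1) profiles over the 12 libraries, among protein-coding genes with a mean TPM of at least 5. The profiles share their libraries and carry no test. Nearest to FOXA1 were the cholesterol synthesis gene ACAT2 at 0.12, GYG2 at 0.12, HSD17B7 at 0.14, ID4 at 0.14 and LSS at 0.14, where the SD of FOXA1 over the libraries was 0.50. Nearest to CEBPA were the proline synthesis gene PYCR1 at 0.10, FGFR4 at 0.10, FDPS at 0.11, SCARB1 at 0.12 and RBP4 at 0.12, beside an SD of 0.54. PYCR1 had means of 57.0 TPM with both drugs, 65.1 TPM with disulfiram, 118 TPM with thalidomide and 119 TPM in control. Nearest to FOXA2 were ECHDC3 at 0.08, SDF4 at 0.09, THTPA at 0.09, MBOAT7 at 0.09 and ZNF444 at 0.09, with an SD of 0.19 for FOXA2, and FOXA2 itself varied little.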

How the data were processed

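RNA sequencing of 12 Huh7 libraries (4 groups of 3) was used. The deposited table holds TPM, made by the authors with HISAT2 2.0 and StringTie 1.3.0 on hg38, per the submitters' processing notes; the sources used here do not give annotation, filters or strand, and the labels' extract protocol describes single-cell tissue work that does not match a bulk table. TPM keeps no read count, so depth and counting error are unknown. Of 59191 features, 58611 matched GENCODE 29.

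From TPM, log2(TPM + 1) was taken for the 15352 genes that reached 1 TPM in 3 or more libraries, and all 12 libraries were fitted in limma 3.58.1 (R 4.3.3) with a mean-variance trend, two-sided tests, and p-values adjusted by Benjamini-Hochberg over all genes at 0.05. The script was tested on simulated data. A fold change on log2(TPM + 1) understates changes of low genes. Whether replicates were separate cultures is not in the labels, and p-values then reflect only library spread, which may be technical. Members and lists were chosen with earlier results of these data known, and target lists come from textbook knowledge. Named list genes are up to 4 per comparison with the largest change past the threshold, a mean TPM of at least 5 and no overlap of libraries (where none qualified, the 2 with the highest TPM); some genes so picked are not reported here. GC content is that of a gene's longest transcript (98% of tested genes). Alternatives were a pseudocount of 0.1, no filter, median-of-ratios scaling, the compared groups alone, a replicate block, a GC correction (a lowess curve within each library, which also centres the libraries), both of these, removal of the second disulfiram and second combination libraries, and each library left out.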

Additional observations from a re-analysis of the deposited data

How the results depend on the processing

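Of 1071 values of the 9 genes under the alternatives, 973 kept direction and side of the threshold, 65 changed sign, 11 lost a call and 22 gained one without a change of sign. Of the 65, 1 also gained a call: NR1H4 with both drugs against thalidomide under the GC correction with the replicate block (adjusted p = 0.01689). The falls of FOXA1 and CEBPA kept both under every alternative in the 3 comparisons that called them. No cause of any change below was tested. With both drugs against control, 5 of the 9 genes passed under median-of-ratios scaling and 6 with combination 2 and disulfiram 2 removed, when 5850 of all genes passed. Counted over all genes tested, thalidomide against control gave 3 genes with the compared groups alone and 1 without those libraries. Both drugs against disulfiram gave 5 of all genes with no filter, 0 with the compared groups alone and 0 with the replicate block. The interaction gave 3 of all genes with no filter and 1 each with a pseudocount of 0.1, median-of-ratios scaling, the GC correction, that with the block, and those libraries removed. In thalidomide against control, both drugs against disulfiram and the interaction, none of the 9 genes passed under any alternative.

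Signs turned under median-of-ratios scaling (-0.0731 for NR1H4 in disulfiram against control, -0.0842 for FOXA3 in disulfiram against control, -0.1432 for HNF4A in combination against control, -0.0723 for NR1H4 in combination against control, -0.1124 for HNF4A in combination against thalidomide, -0.1537 for NR1H4 in combination against thalidomide, -0.1137 for HNF4A in the interaction, -0.0806 for NR1H4 in the interaction, -0.1298 for FOXA1 in the interaction), under the GC correction, with and without the replicate block (-0.0493 for NR1H4 in disulfiram against control, -0.0496 for FOXA3 in disulfiram against control, -0.2823 for NR1H4 in combination against control, -0.1114 for NR5A2 in combination against control, -0.2329 for NR1H4 in combination against disulfiram, -0.3988 for NR1H4 in combination against thalidomide, 0.0045 for CEBPB in combination against thalidomide, -0.3494 for NR1H4 in the interaction, -0.0625 for NR5A2 in the interaction, -0.0301 for FOXA1 in the interaction), and with those libraries removed (-0.0125 for FOXA3 in disulfiram against control, -0.0304 for HNF4A in the interaction). The calls split 1340 higher and 694 lower for disulfiram, 2823 and 1029 for both drugs against control and 3834 and 1112 against thalidomide. Median-of-ratios scaling gave 704 and 1050, 1213 and 2139, and 1600 and 2400; the GC correction gave 1378 and 1577, 1545 and 1868, and 1771 and 1955.

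Leaving out each library in turn, members called ranged from 2 to 3 for disulfiram, 2 to 5 for both drugs against control and 3 to 6 against thalidomide, and all genes called from 1173 to 2190, 1426 to 5085 and 2174 to 5844; the ranges were 0 to 25 for thalidomide, 0 to 54 for both drugs against disulfiram and 0 to 1 for the interaction. All-gene counts moved by over 1.5 times for disulfiram against control without disulfiram 1 (1289), disulfiram 3 (1173), control 1 (1215), control 2 (1350) or control 3 (1302). For both drugs against control they did so without combination 1 (1664), combination 3 (1426), control 1 (1973) or control 3 (2094), and against thalidomide without combination 1 (2274), combination 3 (2174) or thalidomide 1 (2405). Members called with both drugs against control were 2 without combination 1, combination 3, control 1 or control 3, and 5 without combination 2 or disulfiram 2. In disulfiram against control, the range for NR1H4 from -0.0915 to 0.2946, FOXA2 from -0.0711 to 0.0526 and FOXA3 from -0.0233 to 0.1356 crossed 0. In combination against control, the range for NR1H4 from -0.063 to 0.4065 crossed 0. In thalidomide against control, the range for NR1H4 from -0.0112 to 0.1084, CEBPA from -0.0106 to 0.1431 and FOXA3 from -0.009 to 0.1498 crossed 0. In combination against disulfiram, the range for HNF4A from -0.0804 to 0.0481, NR1H4 from -0.1503 to 0.3629 and NR5A2 from -0.2917 to 0.1379 crossed 0. In combination against thalidomide, the range for NR1H4 from -0.1187 to 0.3508 and CEBPB from -0.2178 to 0.037 crossed 0. In the interaction, the range for NR1H4 from -0.2059 to 0.3072, FOXA1 from -0.0943 to 0.0626 and HNF4A from -0.0283 to 0.1142 crossed 0.

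Correlations of deviations by replicate number ran from -0.154 to 0.369, not all above 0.1 in any comparison, and the main fit used no pairing. They were all positive only between combination and disulfiram, at 0.211, 0.369 and 0.03 for replicates 1, 2 and 3. The GC dependence of these libraries also had the same sign in each replicate number (rho -0.592 and -0.486, 0.664 and 0.6, -0.368 and -0.3). Whether replicate numbers mark a shared batch was not tested. The replicate block left 2, 3, 0, 0, 4 and 0 of the 9 genes called in the 6 comparisons, as without it, and 1786, 3584, 0, 0, 4632 and 0 of all genes. TPM carries no read count, so what depth limits is unknown.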
